A study of Mus musculus with 4 samples.

Results

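The genes described here are 10 genes that mark successive steps of the oligodendrocyte lineage, Pdgfra, Cspg4, Vcan, Neu4, Gpr17, Enpp6, Bcas1, Sox10, Olig1 and Olig2, chosen by symbol among 32285 genes in the count matrices. Single-nucleus RNA sequencing was performed on the cerebral cortex of GCLC-KO mice aged 3 months (named 3M with their replicate number) and 6 months (6M), with 2 mice at each age and 1 mouse per library. In these mice, floxed alleles of Gclc, which encodes the catalytic subunit of the enzyme that starts glutathione synthesis, were crossed with CaMKII-Cre, a driver active in neurons, so that the lineage studied here was not the cell type targeted. The cortical regions taken were those with abundant rod-shaped microglia, and nuclei positive for DAPI were sorted as singlets before 3′-end library preparation. All 4 libraries carried the knockout and received no treatment, no wild-type library was among them, and a change with age in the knockout cannot be told apart from a change with age in general.

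Oligodendrocytes arise from oligodendrocyte precursor cells (OPC), which divide in response to platelet-derived growth factor, then commit to differentiation, stop expressing precursor genes and pass through a short premyelinating stage before they express the myelin genes. Pdgfra encodes the receptor for that growth factor, Cspg4 the NG2 proteoglycan, Vcan the matrix proteoglycan versican and Neu4 a sialidase. Gpr17 encodes a G protein-coupled receptor of committed precursors, Enpp6 a choline phosphodiesterase of newly formed oligodendrocytes and Bcas1 a protein known from early myelinating cells, whereas Sox10, Olig1 and Olig2 encode transcription factors that act along the whole lineage.

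Promoter sequences are shown for the 3 members whose windows overlapped no annotated exon, the precursor genes Pdgfra and Vcan and the later gene Enpp6. They are the 250 bases before the annotated start, 5′ to 3′ on the gene's strand, from RefSeq (GRCm38.p6), and lie at chr5:75152001-75152250 (plus strand), chr13:89742513-89742762 (minus strand) and chr8:46986637-46986886 (plus strand).
Pdgfra: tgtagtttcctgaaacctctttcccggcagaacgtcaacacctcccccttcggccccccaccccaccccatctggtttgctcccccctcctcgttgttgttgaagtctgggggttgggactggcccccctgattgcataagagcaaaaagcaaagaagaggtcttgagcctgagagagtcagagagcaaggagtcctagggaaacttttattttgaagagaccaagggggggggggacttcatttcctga
Vcan: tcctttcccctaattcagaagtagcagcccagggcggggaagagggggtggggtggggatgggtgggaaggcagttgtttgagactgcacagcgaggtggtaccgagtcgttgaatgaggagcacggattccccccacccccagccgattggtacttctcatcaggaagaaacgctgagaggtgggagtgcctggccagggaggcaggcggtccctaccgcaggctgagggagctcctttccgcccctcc
Enpp6: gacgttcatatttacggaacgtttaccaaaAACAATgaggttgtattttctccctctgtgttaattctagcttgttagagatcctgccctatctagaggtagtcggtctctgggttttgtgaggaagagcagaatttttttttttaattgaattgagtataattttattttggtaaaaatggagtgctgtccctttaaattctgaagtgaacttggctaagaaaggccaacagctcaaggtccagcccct
Capitals mark AACAAT, a motif of the kind bound by SOX proteins, which occurred once in the Enpp6 window. On either strand, AACAAT was present in 9.42% of 32851 promoter windows of this length. Another motif of this kind, ACAAAG, was present in 16.5% of them, and the E-box CAGCTG, of the kind bound by OLIG proteins, in 13.0%. The windows of Pdgfra and Vcan held none of the 3 motifs. The GC content was 38.4% in the Enpp6 window, 54.4% in that of Pdgfra and 62.4% in that of Vcan. RefSeq windows were found for 6 of the 10 members, and AACAAT also occurred once in that of Olig2, which overlaps an exon and is not shown.

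After filtering, 30515 of 30784 barcodes were kept, with 59262228 to 65894316 unique molecular identifiers (UMIs, counted molecules) per library and a median of 5994 to 8140 UMIs per nucleus. Only 93 barcode sequences occurred in 2 libraries. Scrublet called 3.88% to 8.78% of nuclei per library doublets. Xist was present in every library and the Y-linked Ddx3y gave at most 7 UMIs per library.

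Lineage nuclei were gated with other markers than the 10 members. OPC were defined by 8 genes (Lhfpl3, Tnr, Ptprz1, Megf11, C1ql1, Xylt1, Pcdh15 and Sox6), oligodendrocytes by 12 genes (among them Mog, Mag, Mobp, Mbp, Prr5l, Aspa and St18), and nuclei that met both lists were kept apart. This gave 740 OPC (221, 192, 179 and 148 per library, ordered here and throughout by age and then by replicate number), 4251 oligodendrocytes (838, 803, 1463 and 1147) and 101 nuclei with both lists (29, 21, 31 and 20). The summed level of the OPC list was 18996 to 22533 counts per 1e6 UMIs of the class (CPM) in OPC and 343 to 452 CPM in oligodendrocytes, and that of the oligodendrocyte list 272 to 347 CPM and 19053 to 21830 CPM, which the gate itself fixed. Scrublet called 0.946% of the OPC and 0.565% of the oligodendrocytes doublets, but 33.7% of the nuclei with both lists, which had a median of 5431 UMIs against 3670.5 in OPC and 2134 in oligodendrocytes. Levels and tests of single genes in the nuclei with both lists are therefore given with and without doublet calls. Counts over gene lists, bins along the lineage and shares of positive nuclei include the nuclei called doublets. Unlike the gate, Scrublet was given the counts of all genes, the members among them. Member levels and tests without doublet calls are thus not independent of these calls. Markers of excitatory neurons summed to 172 to 415 CPM in these nuclei, 103 to 200 CPM in OPC and 128 to 234 CPM in oligodendrocytes, and those of microglia to 44.4 to 187 CPM, 95.3 to 164 CPM and 65.7 to 94.1 CPM. The list of inhibitory neurons summed to 1849 to 3025 CPM in the nuclei with both lists, 4204 to 4739 CPM in OPC and 1477 to 1668 CPM in oligodendrocytes. Of its 6 genes, Erbb4 (1258 to 2068, 2133 to 2344 and 1428 to 1614 CPM) and Nxph1 (544 to 919, 1993 to 2451 and 10.3 to 37.6 CPM) gave most of this level, while Gad1, Gad2, Slc32a1 and Dlx6os1 stayed at or below 67.3 CPM in each class and library. The part of these markers in the results was not tested.

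All CPM values below are UMIs of a gene per 1e6 UMIs summed over the nuclei of 1 class in 1 library, not divided by gene length, and are compared only within a gene. Differences are log2 fold changes ± SE from the edgeR quasi-likelihood test on the summed UMIs, with Benjamini-Hochberg adjusted p-values over all genes tested and the mouse as a block for comparisons within mice. Of all member UMIs in the kept nuclei, between 57.7% (Vcan) and 80.8% (Bcas1) fell in the gated lineage nuclei.

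The first comparison asked which members separate OPC from oligodendrocytes. All 10 members passed the test, 8 higher in OPC and 2, Enpp6 and Bcas1, lower, where 53.7% of the 10937 genes tested passed in either direction (27.9% higher, 25.8% lower). Pdgfra, Neu4 and Gpr17 gave at most 11 UMIs per library in oligodendrocytes, and Enpp6 at most 5 in OPC, where they were too low to be tested on their own. They entered this test through the class where they were high, and their fold changes rest on the few UMIs of the other class. The 5 precursor-stage genes were high in OPC. In oligodendrocytes Cspg4 retained 14.5 to 18.1 CPM and the others were close to 0, and the 3 transcription factors were present in both classes.

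Pdgfra, the growth factor receptor, stood at 1110, 1163, 1379 and 1202 CPM in OPC and at 2.46, 0.689, 2.52 and 3.86 CPM in oligodendrocytes. The log2 fold change was 8.75 ± 0.18 (adjusted p = 1.4e-20, edgeR), against 6, 1, 8 and 11 UMIs in oligodendrocytes. Vcan stood at 922, 912, 1055 and 1131 CPM in OPC and at 2.46, 0.689, 5.04 and 6.32 CPM in oligodendrocytes (log2 fold change 7.86 ± 0.18). The OPC value was the higher one in each of the 4 mice for both genes, without overlap between the classes. Cspg4 stood at 386, 290, 421 and 354 CPM in OPC and retained 18.1, 14.5, 16.7 and 15.8 CPM in oligodendrocytes (log2 fold change 4.38 ± 0.13). Neu4 stood at 207, 210, 218 and 196 CPM in OPC, a spread of 9.34 CPM (SD, n = 4 mice), and at 0.689 to 1.26 CPM in oligodendrocytes, from 3, 1, 4 and 2 UMIs (log2 fold change 7.49 ± 0.21). Gpr17, the receptor of committed precursors, lay mainly on the OPC side, with 103, 162, 112 and 111 CPM in OPC against 2.05, 0.689, 2.20 and 3.86 CPM in oligodendrocytes, the latter from 5, 1, 7 and 11 UMIs.

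Enpp6, the choline phosphodiesterase of newly formed oligodendrocytes, had the opposite distribution. It gave 2, 0, 3 and 5 UMIs in OPC (2.07, 0, 4.31 and 7.96 CPM) and 79.2, 88.2, 109 and 74.8 CPM in oligodendrocytes, without overlap (log2 fold change -4.73 ± 0.30, adjusted p = 2.09e-12, edgeR). With classes from clusters it gave no UMI in the OPC of any library, and the fitted difference of -10.17 then has no measured level on the OPC side. Bcas1 was nearly level, with 628, 500, 878 and 610 CPM in OPC and 802, 677, 742 and 730 CPM in oligodendrocytes, ranges that overlap. Its log2 fold change of -0.30 ± 0.12 passed (adjusted p = 0.0316, edgeR) but was lost with DESeq2 (adjusted p = 0.128), without TMM scaling (0.185), without the mouse block (0.155), and without 3M-1 (0.166), 3M-2 (0.166) or 6M-2 (0.0811).

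Among the transcription factors, Olig2 stood at 139, 148, 236 and 162 CPM in OPC and at 35.3, 47.5, 79.0 and 40.4 CPM in oligodendrocytes (log2 fold change 1.68 ± 0.12). Sox10 stood at 691, 539, 431 and 498 CPM in OPC and at 352, 424, 284 and 368 CPM in oligodendrocytes (log2 fold change 0.49 ± 0.11, adjusted p = 4.66e-04, edgeR). Olig1 stood at 125, 178, 239 and 188 CPM in OPC and at 96.0, 104, 186 and 124 CPM in oligodendrocytes (log2 fold change 0.41 ± 0.11, adjusted p = 0.00353, edgeR), and this call was lost with DESeq2 (adjusted p = 0.0506) and without the mouse block (0.124). Within each mouse all 3 factors were higher in OPC, while the ranges over mice overlapped for Olig1 and nearly met for Sox10.

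The nuclei with both marker lists were then set against each of the 2 classes, a comparison added after the gate was seen. Enpp6 and Bcas1 were higher in these nuclei than in OPC and than in oligodendrocytes in each of the 4 mice. With nuclei called doublets included, Pdgfra and Cspg4 lay between the levels of the 2 classes. Without doublet calls Cspg4 still did, but from few UMIs. In these smaller sums 1 UMI was 16.1 CPM in 3M-2, 9.29 CPM in 6M-1 and 18.9 CPM in 6M-2. Pdgfra without doublet calls gave no UMI in 2 of the 4 mice and did not lie between the classes there. Of the 10 members, 7 passed against OPC (2 higher, 5 lower), where 20.6% of 6946 genes passed (10.2% higher, 10.3% lower). Against oligodendrocytes 8 passed, all higher, where 31.7% of 9191 genes passed (17.3% higher). Pdgfra was among these 8, with nuclei called doublets included. Pdgfra, Neu4 and Gpr17 were too low in oligodendrocytes and entered this test through the nuclei with both lists. The gate asked for an OPC list level of 40 or more per 10000 UMIs in these nuclei and under 40 in oligodendrocytes. The direction of genes that go with the OPC list was thus not independent of the gate.

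Bcas1 stood at 3285, 3312, 2699 and 2217 CPM in the nuclei with both lists. That was above OPC by 2.19 ± 0.19 (adjusted p = 1.91e-09) and above oligodendrocytes by 1.88 ± 0.16 (adjusted p = 3.94e-12) on the log2 scale in the edgeR test. Without doublet calls, which left 67 of the 101 nuclei, the level was 4891, 5105, 5267 and 4247 CPM, and the differences were larger, 2.90 and 2.57. The lowest library of the nuclei with both lists thus exceeded the highest OPC library (878 CPM) and the highest oligodendrocyte library (802 CPM).

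Enpp6 stood at 682, 728, 361 and 486 CPM in the nuclei with both lists and at 1019, 1140, 743 and 887 CPM without doublet calls. It was 7.26 ± 0.33 above OPC and 2.57 ± 0.19 above oligodendrocytes on the log2 scale (adjusted p = 2.05e-14 and 7.84e-14, edgeR), and 7.93 and 3.26 above them without doublet calls. The difference from OPC is set against only 10 Enpp6 UMIs in OPC, summed over the libraries. Enpp6 entered that test through the nuclei with both lists. No library of one class overlapped those of another.

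The precursor genes fell to different extents. Pdgfra stood at 166, 220, 264 and 176 CPM in the nuclei with both lists, but at 1, 0, 8 and 0 UMIs (8.42, 0, 74.3 and 0 CPM) once nuclei called doublets were left out, so that its log2 difference from OPC moved from -2.53 ± 0.19 to -5.61. Vcan kept 616, 689, 489 and 456 CPM, and 699, 626, 743 and 736 CPM without doublet calls, against 912 to 1131 CPM in OPC (log2 difference -0.81 ± 0.18, adjusted p = 0.00136, edgeR). The difference in Vcan was -0.53 without doublet calls and -1.53 with classes from clusters, and passed in both. Cspg4 stood at 66.6, 95.7, 68.0 and 52.7 CPM (log2 difference from OPC -2.38 ± 0.23), and at 84.2, 64.2, 92.9 and 113 CPM without doublet calls (-2.10).

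Neu4 and Gpr17 were far above oligodendrocytes, by 7.58 ± 0.32 and 5.98 ± 0.37 on the log2 scale, and by 8.36 and 6.93 without doublet calls. These folds are set against 1 to 4 and 1 to 11 UMIs per library in oligodendrocytes, and both genes entered the test through the nuclei with both lists. Against OPC, Neu4 stood at 283, 239, 230 and 146 CPM and did not pass (log2 difference 0.14 ± 0.19, adjusted p = 0.714, edgeR). Gpr17 stood at 266, 182, 157 and 81.9 CPM and did not pass (0.55 ± 0.23, adjusted p = 0.101, edgeR), except without 6M-2 (0.78, adjusted p = 0.0373). Without doublet calls both passed, Neu4 at 421, 305, 427 and 434 CPM (0.91, adjusted p = 2.68e-04) and Gpr17 at 379, 273, 307 and 264 CPM (1.36, adjusted p = 2.02e-06). Both turned lower than in OPC, and passed, when classes were taken from clusters instead of the gate, Neu4 with -0.98 (adjusted p = 2.06e-08) and Gpr17 with -0.54 (adjusted p = 0.00368). In that setting Bcas1 (0.74) remained higher than in OPC, Enpp6 stood at 125 to 201 CPM against no UMI in OPC, and Enpp6 (0.77) and Bcas1 (0.28) remained higher than in oligodendrocytes. The corresponding cluster held 91 of the 101 nuclei with both lists, but 290 nuclei in all, of which 61.0% were called doublets and 82 met the excitatory neuron markers.

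Sox10 stood at 649, 440, 387 and 415 CPM in the nuclei with both lists and passed neither against OPC (-0.15 ± 0.17, adjusted p = 0.618, edgeR) nor against oligodendrocytes (0.34 ± 0.17, adjusted p = 0.125). Without doublet calls it stood at 825, 658, 641 and 887 CPM and was 0.93 above oligodendrocytes (adjusted p = 8.76e-06, edgeR). Its difference from OPC then turned to 0.44 (adjusted p = 0.0579), whereas with classes from clusters it was -0.98 (adjusted p = 1.29e-10). Against oligodendrocytes, Sox10 passed in 2 of 12 alternatives, whose differences ranged from -0.48 to 0.93. Olig1 was lower than in OPC, at 66.6, 163, 128 and 70.2 CPM (-0.80 ± 0.22, adjusted p = 0.00953, edgeR), as was Olig2, at 94.3, 95.7, 111 and 58.5 CPM (-0.91 ± 0.22, adjusted p = 0.00309). Without doublet calls Olig1 stood at 75.8, 144, 130 and 37.7 CPM, from few UMIs (-0.90, adjusted p = 0.0131). With classes from clusters the differences were -1.44 for Olig1 and -1.42 for Olig2. The Olig1 call was lost with DESeq2 (adjusted p = 0.100), without the mouse block (0.0536) and without 3M-1, 6M-1 or 6M-2 (0.0511 to 0.104), and the Olig2 call with DESeq2 (0.0553) and without doublet calls (-0.41, adjusted p = 0.286). Against oligodendrocytes, Olig2 was higher (0.76 ± 0.25, adjusted p = 0.0153), and by 1.25 without doublet calls. It passed in 6 of 12 alternatives, with adjusted p of up to 0.173 over all 12. Among others, the call was lost with DESeq2 (0.0639), without the block (0.0709) and with classes from clusters (0.113). It was also lost without 3M-1 (0.140) or 3M-2 (0.0627). Olig1 did not pass against oligodendrocytes (-0.40 ± 0.22, adjusted p = 0.193), except without the low-count filter (0.0331), with classes from clusters (4.13e-06) and without 3M-2 (0.0189).

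Other genes known from committed precursors and newly formed oligodendrocytes were examined as a list of 14. All 11 tested were higher in the nuclei with both lists than in OPC, with a median log2 difference of 2.22. Of all genes 10.2% were higher there (median 0.0053). Against oligodendrocytes 11 of 13 were higher and Kirrel3 lower (median 2.14), where 17.3% of all genes were higher and 14.4% lower (median -0.040). Genes low in OPC or oligodendrocytes could enter these tests only through the nuclei with both lists. Fyn, a Src family kinase needed for myelination, stood at 3651, 2776, 2087 and 2089 CPM in these nuclei and at 461, 370, 463 and 416 CPM in OPC (log2 difference 2.64 ± 0.18). Tcf7l2, a transcription factor of the Wnt pathway, stood at 960, 1292, 621 and 895 CPM against 158, 177, 158 and 112 CPM in OPC (2.65 ± 0.19). Tns3, an adhesion protein, rose by 2.08 ± 0.19 and the long noncoding RNA 9630013A20Rik by 3.59 ± 0.20. Itpr2, a calcium channel of the endoplasmic reticulum, rose by 0.86 ± 0.17. Without doublet calls the differences were 3.41 for Fyn, 3.32 for Tcf7l2, 2.70 for Tns3, 4.27 for 9630013A20Rik and 1.53 for Itpr2. With classes from clusters they were 1.43, 1.37, 0.66 and 2.64, and Itpr2 turned to -0.37, and each passed.

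Other lists were counted in the same comparison, where 10.2% of all genes were higher than in OPC and 10.3% lower. Of 10 lineage transcription factors tested against OPC, 6 were higher and 2 lower (median log2 difference 0.84). Of 4 matrix genes (median -0.79), Cspg5, a proteoglycan like NG2 and versican, was lower, at 144, 220, 268 and 246 CPM against 920, 1106, 1174 and 1045 CPM in OPC (-2.24 ± 0.19), as was Ncan. Without doublet calls Cspg5 stood at 25.3, 16.1, 158 and 56.6 CPM, from 3, 1, 17 and 3 UMIs (-4.01). Hes5, a target of Notch signalling, was also lower (-2.56 ± 0.33), from 2, 3, 6 and 4 UMIs in the nuclei with both lists. It gave no UMI in any library without doublet calls. Of 6 inhibitors of differentiation tested (median -0.21), Lingo1 was higher, and Notch1 and Hes5 were lower. Of 5 growth factor signalling genes (median -0.37), Fgfr1 was lower and none was higher. Between OPC and oligodendrocytes themselves, where 27.9% of all genes were higher in OPC and 25.8% lower (median -0.030), 7 of 14 transcription factors were higher in OPC and 4 lower (median 0.88), among them Sox5 (5.36 ± 0.15), which keeps precursors immature, and Myrf (-3.26 ± 0.16), the activator of myelin genes. Of 6 matrix genes (median 4.86), 5 were higher in OPC, and Hapln2, a link protein of the nodes of Ranvier, was lower (-7.29 ± 0.23). Of 8 growth factor signalling genes 3 were higher and 5 lower (median -0.49), and of 7 inhibitors of differentiation 4 were higher and none lower (median 0.74). The committed precursor list split into 6 higher and 2 lower of 11 (median 0.65), and none of the 7 cell cycle genes was expressed highly enough to be tested between these classes.

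All lineage nuclei were also ordered by the share that the oligodendrocyte list took of the summed level of both lists, in 6 bins. Bcas1 rose from 553 CPM in the lowest bin (0 to 2%) and 936 CPM in the next (2 to 10%) to 2997 CPM (10 to 25%) and 2708 CPM (25 to 75%), and was 783 and 720 CPM in the last bins (75 to 98% and 98 to 100%). Pooled over libraries, Enpp6 was highest in the bin of 25 to 75%, at 560 CPM, and Gpr17 (280 CPM) and Neu4 (327 CPM) in that of 10 to 25%. This order did not hold in each library. Enpp6 was higher at 10 to 25% than at 25 to 75% in 3M-1 (700 against 613 CPM) and 6M-1 (450 against 331 CPM). In 6M-2, Gpr17 (167 CPM) and Neu4 (200 CPM) were highest at 2 to 10%, and in 3M-2 Neu4 was highest at 25 to 75% (245 CPM). Pooled Pdgfra fell from 1274 CPM in the first bin to 243 CPM in the third, where the libraries stood at 65.1, 230, 634 and 82.0 CPM. In 3M-2, Bcas1 was lower at 2 to 10% than at 0 to 2% (444 against 527 CPM). The values pooled over libraries are a description, since the middle bins held 36 and 70 nuclei, with 6 to 21 per library. Within the nuclei with both lists, the mean position of Enpp6 UMIs on this axis exceeded that of Gpr17 UMIs by 4.38, 21.4, 5.04 and 10.7 percentage points in the 4 mice (mean 10.4 ± 7.90, SD), in the same direction in each, and the exact two-sided sign-flip test gave p = 0.125, the smallest that 4 mice allow. The mean difference was 9.93 without doublet calls, 5.94 with the stricter gate and 6.71 without 3M-2.

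**Figure D1:**
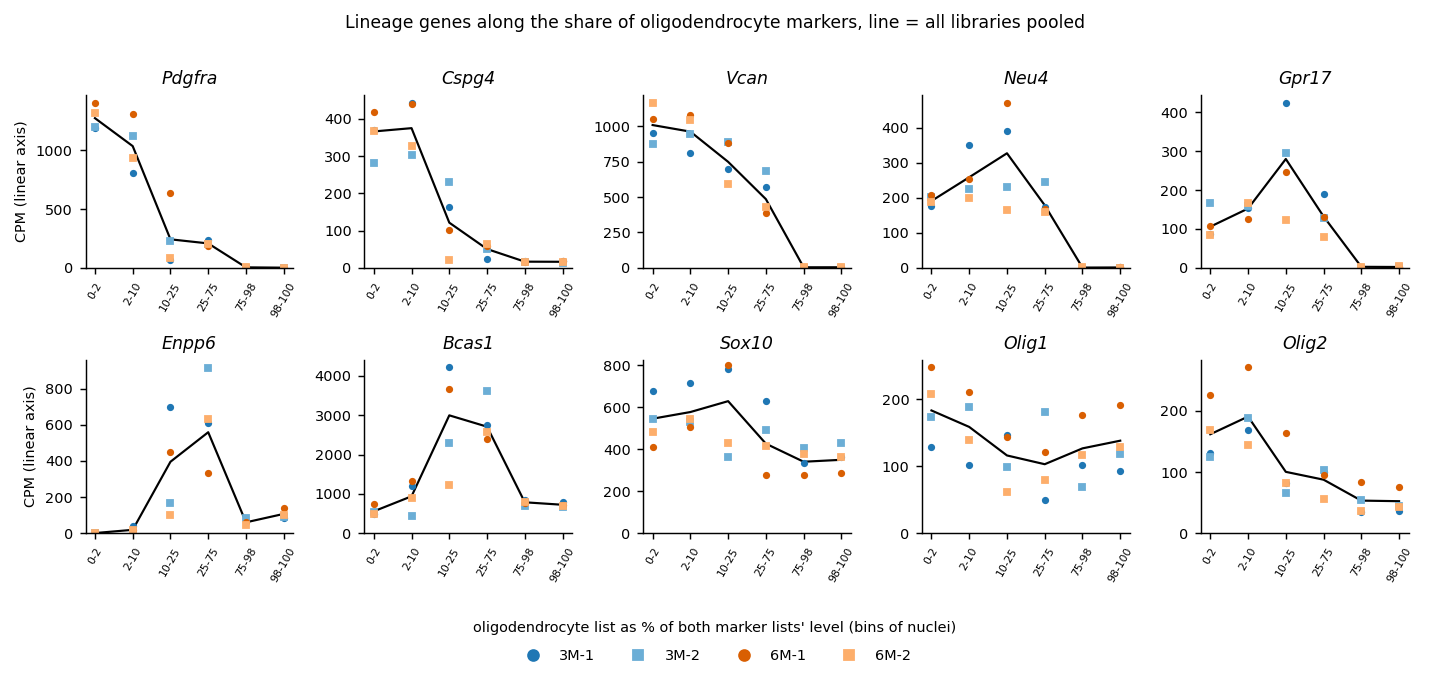
Level of each member in CPM (vertical axes, linear, from 0) in bins of lineage nuclei ordered by the oligodendrocyte list as a percentage of the level of both marker lists (horizontal axes). Points are libraries, and lines join the values pooled over libraries. Pdgfra declines from the first bin, the pooled lines of Gpr17 and Neu4 are highest at 10 to 25% and that of Enpp6 at 25 to 75%, an order from which points of single libraries depart. Single libraries hold 6 to 13 nuclei at 10 to 25% and 15 to 21 at 25 to 75%.

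Nuclei with at least 1 UMI of Gpr17 or Enpp6 were counted next. At full depth there were 900 among 5092 lineage nuclei (17.7%), namely 72, 70, 59 and 50 OPC, 24, 18, 24 and 15 nuclei with both lists, and 117, 90, 224 and 137 oligodendrocytes. The 251 positive OPC all carried Gpr17, and 5 of them also Enpp6. Of the 568 positive oligodendrocytes, 552 carried Enpp6 and 22 Gpr17. In nuclei that should lack both genes the share was 1.17% of excitatory neurons (median 9866.5 UMIs), 1.15% of inhibitory neurons (median 8184 UMIs) and 1.23% of microglia (median 1874 UMIs). Gpr17 was present in 0.518% of oligodendrocytes (median 2134 UMIs) and in 0.426% of the deeper excitatory neurons. After thinning each nucleus to 1000 UMIs the shares were 0.124%, 0%, 0.280% and 0.265% of oligodendrocytes, from 1, 0, 4 and 3 nuclei, against 0.0873%, 0%, 0.0601% and 0.0638% of excitatory neurons.

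Both genes occurred in the same nucleus in 42 of the 101 nuclei with both lists (41.6%), in 13, 8, 14 and 7 nuclei per library, and in 5 of 740 OPC (0.676%) and 6 of 4251 oligodendrocytes (0.141%). Among nuclei with both lists, the 42 with both genes were called doublets in 4.76% of cases and pooled to 5006 CPM Bcas1 and 72.4 CPM Pdgfra. The 20 with neither gene were called doublets in 85.0% of cases and pooled to 497 CPM Bcas1 and 379 CPM Pdgfra. The 14 with Gpr17 but no Enpp6 UMI pooled to 1884 CPM Bcas1, between these groups, and to 531 CPM Pdgfra, above both, with 42.9% doublet calls. The 25 with Enpp6 but no Gpr17 UMI pooled to 2369 CPM Bcas1 and 119 CPM Pdgfra, both between these groups, with 36.0% doublet calls. The 5 OPC with both genes gave no Pdgfra UMI and 5227 CPM Bcas1. In oligodendrocytes, the 546 nuclei with Enpp6 but no Gpr17 UMI had a Bcas1 level of 663 CPM, against 756 CPM in the 3683 with neither gene. These pooled values come from several mice and have no test.

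To compare the ages, each nucleus was thinned to 1000 UMIs, which left out 34, 142, 34 and 18 shallower lineage nuclei. The positive share was 7.87% (83 of 1054), 10.4% (91 of 874), 9.70% (159 of 1639) and 7.02% (91 of 1297), with 95% Wilson intervals of 6.40 to 9.66%, 8.56 to 12.6%, 8.36 to 11.2% and 5.75 to 8.54%, which cover counting error only. The ages overlapped, and the difference of -0.78 percentage points at 6 months had an exact two-sided permutation p of 0.667, where 2 mice against 2 cannot go below 0.333. Its sign turned without 3M-2 (0.48) and without 6M-2 (0.56). Gpr17, with or without Enpp6, was found in 3.23%, 3.78%, 1.89% and 1.85% of thinned lineage nuclei, without overlap (difference -1.63 percentage points, exact permutation p = 0.333). Among OPC it was found in 10.5%, 14.4%, 11.8% and 11.6%, where the ages overlapped (exact permutation p = 1). Enpp6 was found in 5.71%, 7.51%, 8.46% and 5.58% of thinned oligodendrocytes, also with overlap (exact permutation p = 1). In the nuclei with both lists either gene was found in 46.4%, 66.7%, 41.9% and 40%, without overlap of the ages (exact permutation p = 0.333) but with Wilson intervals as wide as 21.9 to 61.3%.

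**Figure D2:**
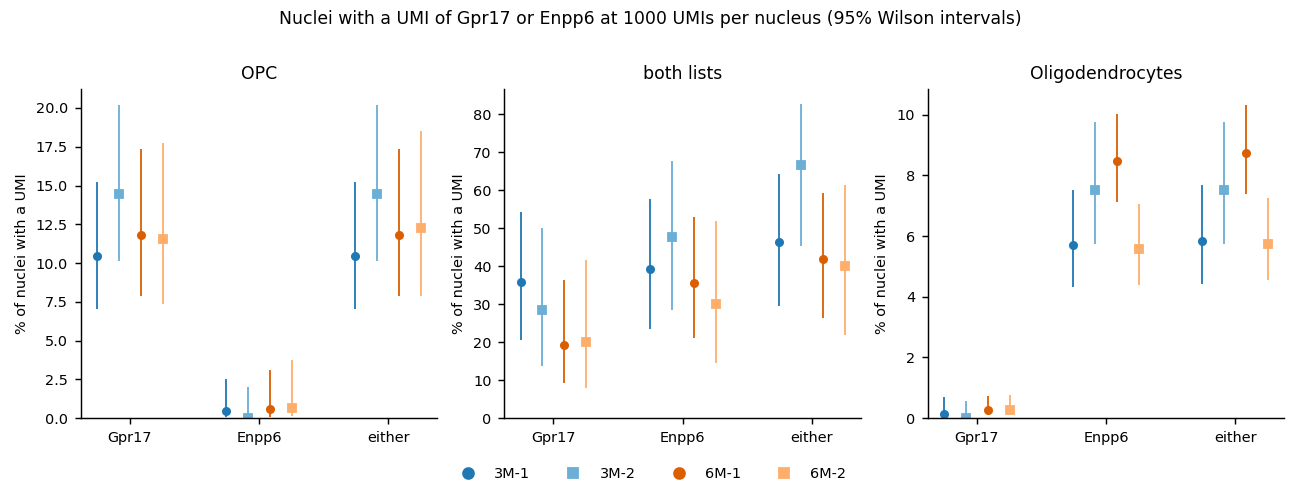
Percentage of nuclei with at least 1 UMI of Gpr17, of Enpp6 or of either gene after thinning each nucleus to 1000 UMIs, in OPC, nuclei with both lists and oligodendrocytes (vertical axes linear, from 0, with different scales). Points are libraries and bars are 95% Wilson intervals. Gpr17 marks 10.5 to 14.4% of OPC and at most 0.280% of oligodendrocytes in any library, and Enpp6 marks 5.58 to 8.46% of oligodendrocytes.

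The makeup of the lineage was compared next. OPC made up 20.3%, 18.9%, 10.7% and 11.3% of the gated lineage nuclei, a mean of 19.6 ± 1.00% at 3 months and 11 ± 0.393% at 6 months (SD, n = 2 mice each), and the ages did not overlap (exact permutation p = 0.333, the smallest possible). As a share of OPC plus oligodendrocytes the difference was -8.92 percentage points, and -8.13 to -9.70 over the alternatives. The share was lower at 6 months within both batch numbers of the labels. As a share of all nuclei, OPC made up 3.25%, 2.19%, 2.21% and 2.16%, which overlapped (exact permutation p = 0.667), while oligodendrocytes made up 12.3%, 9.18%, 18.0% and 16.7%, without overlap (exact permutation p = 0.333). Nuclei with both lists made up 0.426%, 0.240%, 0.382% and 0.292% of all nuclei, with overlap (exact permutation p = 1). Shares also depend on the dissected region and on the sort, which cannot be told apart from the ages.

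Gene by gene, no member passed between 6 and 3 months. In OPC, 9 of the 10 members were tested, since Enpp6 was too low, and none was called (0.011% of 9122 genes were called, and 441 had an unadjusted p under 0.05). DESeq2 called 3 genes in the same comparison. The 1 gene called, named after its values were seen, was the Y-chromosome gene model Gm21860, with 0, 0, 27 and 19 UMIs. Over all kept nuclei it gave 18, 19, 556 and 313 UMIs, so this shift was not particular to OPC. Its source, in libraries with Xist and few Ddx3y UMIs, was not tested. Log2 differences lay between -0.39 ± 0.16 (Sox10) and 0.54 ± 0.22 (Olig1), with adjusted p of 0.956 or more (edgeR). The libraries of the ages did not overlap for 5 of the 9, 4 higher at 6 months (Pdgfra, Vcan, Olig1 and Olig2) and 1 lower (Sox10), where 33.6% of the genes tested did not overlap (15.6% higher, 18% lower). Pdgfra stood at 1379 and 1202 CPM at 6 months and 1110 and 1163 CPM at 3 months (0.21 ± 0.13). Neu4 (0.02 ± 0.18) and Gpr17 (-0.19 ± 0.24) differed by less than their SE, and Bcas1 (0.42 ± 0.18) overlapped between the ages. Without 3M-2, Sox10 (-0.56, adjusted p = 0.0458) and Olig1 (0.79, adjusted p = 0.0167) passed, in a fit that called 158 genes with 1 mouse on the 3-month side.

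In oligodendrocytes 7 members were tested, Pdgfra, Neu4 and Gpr17 being too low, and none was called (0.106% of 12232 genes were called, 0.0981% higher and 0.00818% lower, and 951 had an unadjusted p under 0.05). The ages did not overlap for 2 of the 7, Vcan and Olig1, both higher at 6 months, where 37.9% of the genes tested did not overlap (26.1% higher). Enpp6 differed by 0.05 ± 0.21, Bcas1 by -0.10 ± 0.18 and Cspg4 by -0.12 ± 0.29. Vcan differed by 1.54 ± 0.63 (adjusted p = 0.587, edgeR), from 6, 1, 16 and 18 UMIs, and passed the low-count filter only through the 6-month libraries. It was 2.91 without 3M-1 and 1.03 without 3M-2, without passing in either. Olig1 differed by 0.54 ± 0.22 in these nuclei too (adjusted p = 0.570, edgeR), without overlap of the ages, and 6M-1 was the highest library in both classes, at 239 CPM in OPC and 186 CPM in oligodendrocytes. None of the 10 members was called for a difference of the age effect between the classes (0.223% of 12133 genes were called, 0.0824% with the more positive change in OPC and 0.14% with the more positive change in oligodendrocytes), and Bcas1 came nearest (0.51 ± 0.18, unadjusted p = 0.0065, adjusted p = 0.391, edgeR). For Pdgfra, Neu4 and Gpr17, too low in oligodendrocytes, and for Enpp6, too low in OPC, this test cannot decide. These genes entered it through the class where they were high.

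Among the listed genes, none of 12 committed precursor genes passed between the ages in OPC. In oligodendrocytes 1 of 12 passed, 9630013A20Rik, at 71.8, 132, 30.8 and 32.3 CPM (-1.75 ± 0.25, adjusted p = 0.0401, edgeR), which did not pass without TMM (0.0583) or with classes from clusters (-0.30, adjusted p = 0.837). Hes5 in OPC stood at 153, 296, 79.0 and 90.8 CPM, without overlap, and did not pass (-1.35 ± 0.28, adjusted p = 0.270, edgeR). It did pass without the low-count filter (adjusted p = 6.09e-05) and without 3M-1, 3M-2 or 6M-2 (2.67e-12 to 0.0210). No gene of the other lists passed in either class.

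**Figure D3:**
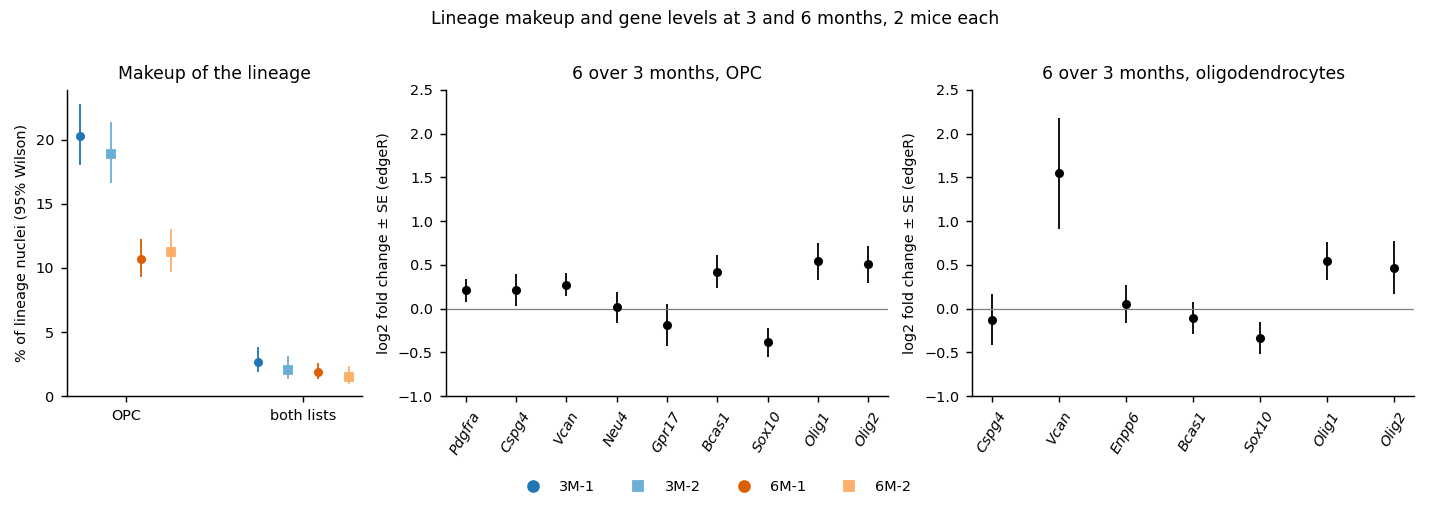
Left, OPC and nuclei with both lists as a percentage of lineage nuclei in each library, with 95% Wilson intervals. Middle and right, log2 fold change ± SE (edgeR) of 6 over 3 months for each member tested in OPC and in oligodendrocytes, with a line at 0. OPC make up 18.9 to 20.3% of the lineage at 3 months and 10.7 to 11.3% at 6 months, and none of the plotted gene differences passed the test.

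Within OPC, nuclei with a Gpr17 UMI were compared with those without, a comparison added after the counts of positive nuclei were seen. The 251 Gpr17-positive OPC had a median of 3946 UMIs and the 489 others a median of 3474 UMIs. Per library the medians were 4348, 3191, 4047 and 4094 UMIs against 4175, 2369, 3216.5 and 3839.5 UMIs. The part of this depth in the differences was not tested. Bcas1 was the 1 member called, apart from Gpr17 itself, which defined the groups, where 0.834% of 6237 genes were called (0.353% higher, 0.481% lower). Kcnip4, lower in Gpr17-positive OPC, had a smaller adjusted p than Bcas1 (-1.21 ± 0.10, adjusted p = 1.96e-23, edgeR). Its difference varied between mice, from 529, 501, 241 and 336 CPM in Gpr17-positive OPC against 541, 1649, 1083 and 729 CPM in the others. In 3M-1 it was nearly level. Ptprd, Dpp10, Zfp804b and Meg3 were lower as well. The lower calls depended on the setting. They numbered 30 in the main fit, 8 without doublet calls, 3 with DESeq2 and 2 without the mouse block. With classes from clusters 0 genes were called lower. Bcas1 stood at 957, 666, 1235 and 802 CPM in Gpr17-positive OPC and at 453, 391, 658 and 504 CPM in the others. It was higher in each of the 4 mice, and the ranges over mice nearly met, at 666 and 658 CPM, without overlap. The log2 difference was 0.87 ± 0.09 (adjusted p = 3.94e-16, edgeR), and it passed in each of 12 alternatives with values of 0.49 to 0.94, including the fit without the mouse block (adjusted p = 0.0316) and that with classes from clusters (0.49, adjusted p = 0.00113).

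Neu4 stood at 308, 276, 222 and 184 CPM in Gpr17-positive OPC and at 154, 167, 216 and 203 CPM in the others. It was higher in both 3-month mice and in 6M-1 but not in 6M-2, and did not pass (0.45 ± 0.14, adjusted p = 0.100, edgeR), except without 6M-1 (adjusted p = 0.0473) or 6M-2 (0.0160). Sox10 was higher in each of the 4 mice without passing (0.25 ± 0.10, adjusted p = 0.401). Pdgfra (-0.14 ± 0.08), Vcan (0.14 ± 0.08), Cspg4 (0.10 ± 0.11), Olig1 (0.02 ± 0.15) and Olig2 (0.16 ± 0.15) did not pass. Of 9 committed precursor genes tested, 2 were higher, Fyn (0.78 ± 0.11, adjusted p = 6.31e-10) and Sirt2, a deacetylase of oligodendrocytes (0.70, adjusted p = 2.8e-04). With classes from clusters neither passed (adjusted p = 0.792 for Fyn and 0.544 for Sirt2), and Sirt2 was also lost with DESeq2 (0.125), without the block (0.311) and without 3M-1 (0.148).

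**Figure D4:**
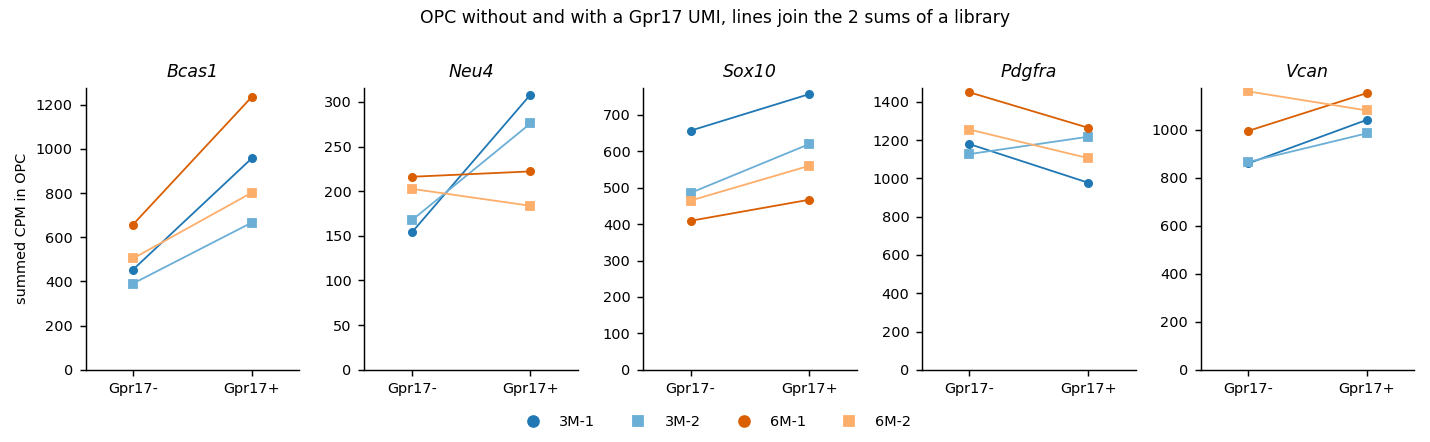
Summed level in CPM (vertical axes, linear, from 0) of 5 members in OPC without (Gpr17-) and with (Gpr17+) a Gpr17 UMI, with a line joining both sums of each library. Bcas1 rises in each of the 4 libraries, from 391 to 658 CPM without to 666 to 1235 CPM with Gpr17, whereas Pdgfra and Vcan move in different directions among libraries.

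The 900 nuclei positive for Gpr17 or Enpp6 were also compared with the other OPC. Because 568 of them were oligodendrocytes, this contrast mixes classes, and Gpr17 and Enpp6 defined it. Of the other 8 members, Bcas1 was higher (1.35 ± 0.12), Sox10 did not pass (-0.09 ± 0.11, adjusted p = 0.601, edgeR, but 0.0117 with classes from clusters), and 6 were lower, from Pdgfra (-1.56 ± 0.12) to Neu4 (-0.47 ± 0.17), where 35.0% of 8401 genes were called (16.6% higher, 18.5% lower). The Neu4 and Olig1 calls were lost with DESeq2 (adjusted p = 0.198 and 0.121) and without the mouse block (0.110 and 0.128), and that of Neu4 also without 6M-1 (0.334) and 6M-2 (0.378), that of Olig1 without 6M-2 (0.132). The 5 higher genes with the smallest adjusted p were Slc24a2, Neat1, Nkain2, Trf, which encodes transferrin, and Sec14l5, and the 5 lower were Nkain3, Wdr17, Gm38505, Gpc5 and Kcnd2, each in the same direction in 4 of 4 mice.

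As a description of likeness, each member's log2(CPM + 1) was correlated with that of 15764 genes over 30 sums of gated classes and libraries, which share libraries and depth. Neu4 and Gpr17 were among each other's most similar genes (Pearson r = 0.972). Pdgfra was most like Sema3d (0.935) and then Neu4 (0.924), Vcan most like Stk32a (0.959), Sox10 most like Plxnb3 (0.953) and Olig2 most like Rnf43 (0.961). The genes most like Enpp6, Gm45600 (0.927), and Bcas1, Bcas1os2 (0.969), are annotated on the opposite strand of the same locus.

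In GENCODE M21 (GRCm38), Enpp6 lies at chr8:46986887-47096762 and overlaps Gm45600 and 4930579M01Rik, which gave 87 and 43 UMIs in lineage nuclei, and Bcas1 lies at chr2:170346991-170427845 and overlaps Bcas1os2 (4014 UMIs) and Bcas1os1 (41 UMIs). Gpr17 overlaps Lims2 (573 UMIs), Vcan overlaps Gm4117 (632 UMIs), Olig1 overlaps Gm15966 (85 UMIs) and Pdgfra overlaps Gm42802 (3 UMIs), each on the opposite strand. The matrices count these opposite-strand partners as genes of their own. The strand setting of the counting was not given in the sources used here, and how fully reads of the partners were kept apart was not tested. Cspg4, Neu4, Sox10 and Olig2 overlap no annotated gene.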

How the data were processed

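The deposited matrices give unnormalized UMI counts for each gene in each nucleus, which the authors obtained with Cell Ranger (mm10, as their processing notes state). Their Seurat objects were not used. As in the study, nuclei with over 7000 detected genes or over 1% mitochondrial UMIs were left out. Nuclei were gated on marker UMIs per 10000: OPC at 100 or more of the OPC list and under 20 of the oligodendrocyte list, oligodendrocytes at 80 or more and under 40 of the OPC list, both at 40 or more OPC and 20 or more oligodendrocyte, each with 3 or more distinct markers and no other class met. Erbb4 and Nxph1 of the inhibitory neuron list were left out of the gate, because their levels were high in lineage nuclei too. Cut-offs were set on the marker lists, and not every marker is named or reported here. Doublets were called with Scrublet in scanpy 1.11.5, given the counts of all genes including the members, and left out only as an alternative. Counts were summed per library and class and tested with edgeR 4.0.16 (filterByExpr, TMM, quasi-likelihood test, threshold 0.05 on the adjusted p, R 4.3.3), after trials on simulated data. DESeq2 1.42.0 was an alternative, as were no TMM, no filter, no filter on nuclei, 4 distinct markers, classes from clusters, the block and leaving out each library. Single values were tested by exact permutation over mice. Motif counts, intervals and floors were computed in Python 3.11.15.

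The members and the gene lists were chosen with earlier results of these data known. All 10 members are given in each comparison, other lists by their counts with up to 4 examples of highest mean CPM. Labels give the same batch numbers, 1 and 2, to both ages, so the block with these numbers was run as an alternative. Replicate differences correlated at -0.020 over genes in OPC and at -0.031 in oligodendrocytes between the ages. The p-values between the ages come from 2 mice per age, and those of comparisons within mice from 4 mice. The edgeR test also shares variance over genes, so that its p-values do not rest on these few mice alone. With the mouse as a block, p-values of comparisons within mice do not measure the spread of levels between mice. Summed OPC held 594022 to 965160 UMIs per library, oligodendrocytes 1451885 to 3177454 and nuclei with both lists 104454 to 235243.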

Additional observations from a re-analysis of the deposited data

How the results depend on the processing

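Of 116 values of the main comparisons under alternatives, 81 stayed within limits and kept their direction, 33 moved and 2 reversed, and of 1321 values for single genes 1246 kept direction and side of the threshold, 36 lost and 18 gained a call, and 21 reversed. The cause was not tested in any case. With 2 mice per age, counts of age calls were unstable. In OPC (1 called) they were 3 with DESeq2, 12 without the low-count filter, 3 without doublet calls, 2 with the stricter gate and 2 to 158 leaving out 1 library, the highest without 3M-2, then 26 without 3M-1, 8 without 6M-2 and 2 without 6M-1. In oligodendrocytes (13 called) they were 31, 7 without TMM, 137 without the filter and 17 to 783 leaving out 1 library, 783 without 3M-2, 218 without 3M-1 and 42 without 6M-2. For the age by class interaction (27 called) they were 1 with DESeq2, 45 without doublet calls, 45 with classes from clusters and 0 to 38 leaving out 1 library, with 0 without 3M-2, 1 without 3M-1 and 9 without 6M-1. The batch numbers paired across ages as a replicate block gave 0 calls in OPC and 46 in oligodendrocytes, where 9630013A20Rik passed (adjusted p = 0.00351), and changed no call of a member.

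The positive share of lineage nuclei ranged from -2.13 to 0.56 percentage points leaving out 1 library, reversing without 3M-2 (0.48) and 6M-2 (0.56). DESeq2 called 1849 genes for positive nuclei against other OPC, 944 for nuclei with both lists against OPC and 9 for Gpr17-positive OPC. Classes from clusters gave 3265 calls for nuclei with both lists against OPC, 6383 against oligodendrocytes (main count 2912) and 7 for Gpr17-positive OPC, where other counts were 25 without doublet calls, 29 with the stricter gate, 6 without the replicate block and 31 to 45 leaving out 1 library, 31 without 6M-1 and without 6M-2.

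Reversals of single genes were mostly of differences near 0. Between the ages in OPC, Neu4 turned to -0.0076 without TMM, -0.018 without the filter, -0.030 with the stricter gate and -0.089 without 6M-1 (up to 0.10 leaving out 1 library), and Gpr17 to 0.14 without 3M-2 (down to -0.51). In oligodendrocytes Cspg4 turned to 0.13 (lowest -0.30) and Bcas1 to 0.085 (lowest -0.28) without 3M-1, and Enpp6 to -0.26 (highest 0.32) and Olig2 to -0.12 (highest 0.88) without 6M-1. In nuclei with both lists against OPC, Neu4 turned to -0.017 without the filter, -0.011 without 3M-1 (highest 0.29) and -0.98 with clusters, Sox10 to 0.44 without doublet calls, and Gpr17 to -0.54 and Itpr2 to -0.37 with clusters. Against oligodendrocytes, Sox10 turned to -0.48 with clusters. In Gpr17-positive OPC, Olig1 turned to -0.024 without doublet calls, -0.033 with clusters, -0.0018 with the stricter gate, -0.018 without 3M-1 and -0.070 without 3M-2 (highest 0.16).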

Other observations

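Outside the oligodendrocyte lineage, Vcan was found in inhibitory neurons, with a mean of 23.8 ± 0.454 CPM (SD, n = 4 mice), above its 6.28 ± 0.460 CPM in excitatory neurons, and the libraries of these classes did not overlap (23.3 to 24.4 CPM against 5.94 to 6.96 CPM). Cspg4, which also marks pericytes, gave 20 UMIs in the 54 nuclei with mural or fibroblast markers (203 CPM pooled over libraries), and Pdgfra, a marker of fibroblasts too, gave 8 UMIs there (81.2 CPM). Neither Pdgfra nor Cspg4 gave a UMI in the 175 nuclei gated as astrocytes, where Olig2 gave 7 UMIs (11.2 CPM pooled). These values were not tested.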
